A study of Mus musculus with 7 samples.

Results

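The stretches described here are windows of 200 bp on the mouse autosomes with a set level of reads in 3 unstimulated T helper BRG1 libraries and a lower level, relative to library size, in 3 stimulated ones. A level, RPM, is the number of reads in the window per 1000000 distinct reads of the library, where reads with the same start and strand count once. A window qualified where it held at least 3 RPM in each of the naive, resting Th1 and resting Th2 libraries, and 5064 windows did. It was a member where each of the 3 stimulated libraries held at most 0.5 times the mean of the 3 unstimulated levels. This left 234 members, which is 4.62% of the qualifying windows, out of 7552364 autosomal windows with a read in any library. The levels in all 6 BRG1 libraries chose the members, so these levels are given as a description. The input library took no part in the choice.

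The series compared BRG1 binding by ChIP-seq, that is, sequencing of DNA recovered with an antibody (J1) to the protein, with 1 library per group. All BRG1 libraries came from Balb/C mice. Naive CD4+CD62L+ T cells of 95% purity were taken from the spleens and lymph nodes of mice aged 4 to 6 weeks. Resting Th1 and Th2 cells were grown from naive cells in a single round on anti-CD3 and anti-CD28, then expanded in IL-2 at 100 U/ml. Th1 cultures held IL-12 at 1 ng/ml and anti-IL-4, and Th2 cultures held IL-4 at 10 ng/ml and anti-IFNγ. Th17 cultures, also from naive cells, held anti-CD3 and anti-CD28 in solution, both anti-IL-4 and anti-IFNγ, TGF-β (1 ng/ml), IL-1β (10 ng/ml) and IL-6 (100 ng/ml), and later IL-23 (10 ng/ml). The stimulated Th1, Th2 and Th17 libraries came from such cells after 1.5 h of treatment with ionomycin (500 ng/ml) and PMA (50 ng/ml). The input was DNA of pooled CD4+ T helper cells without immunoprecipitation. Naive cells have no stimulated counterpart here and Th17 cells no resting one, so Th1 and Th2 are the only subsets with a library in both states.

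BRG1 is the ATPase that drives the SWI/SNF (BAF) complex, which slides and evicts nucleosomes and so sets how open a regulatory element is. It binds no DNA motif of its own and is brought to promoters and enhancers by transcription factors and by acetylated histones. In T cells it is known for its part in thymocyte development and in the opening of cytokine genes. PMA and ionomycin switch on protein kinase C and calcium signalling and so stand in for engagement of the T cell receptor.

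The 3 unstimulated libraries had the lowest depth and the most repeated reads. They held 1340208 to 2071800 distinct reads, against 3917492 to 7892944 after stimulation and 3531867 in input. Reads at an already occupied start and strand made up 28.5% to 41.4% of the unstimulated, 10.2% to 11.8% of the stimulated and 7.23% of the input reads. Reaching 3 RPM took 5 to 7 reads in an unstimulated library, so the members were picked on few reads. With 1 library per group no difference has a replicate check, and state and library preparation cannot be told apart. Intervals are 95% exact intervals that cover counting error only, and those on shares of windows take windows as independent trials, which they are not. All positions are on mm9. No gene table or sequence of that build was used, so the windows are named by position alone.

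The members fell into 2 kinds once the input was set beside them. In 169 windows the mean unstimulated level, with all reads kept, was at least 2 times the input level, and in the other 65 it was not. The 169 are called enriched members below and the 65 input-rich members. This division was made after the data were examined, and it uses the input, which the choice of members did not. Among qualifying windows, 169 of 3397 enriched ones (4.97%) and 65 of 1667 input-rich ones (3.9%) were members.

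In the enriched members, BRG1 reads stood well above input before stimulation and closer to it afterwards. Naive had a median of 4.83 RPM (3.38 to 17.4), resting Th1 one of 6.64 (3.32 to 28.8) and resting Th2 one of 5.97 (3.73 to 20.9). Stimulated Th1 had a median of 2.30 RPM (0 to 6.38), stimulated Th2 one of 2.11 (0 to 5.16) and stimulated Th17 one of 1.52 (0 to 4.81). The input had a median of 0.283 RPM, which is 1 read, and ranged from 0 to 4.53. The rule fixes this order, and its size was a mean stimulated level with a median of 0.304 times the mean unstimulated one. That mean ratio was below 0.2 in 22 of the 169.

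**Figure D1:**
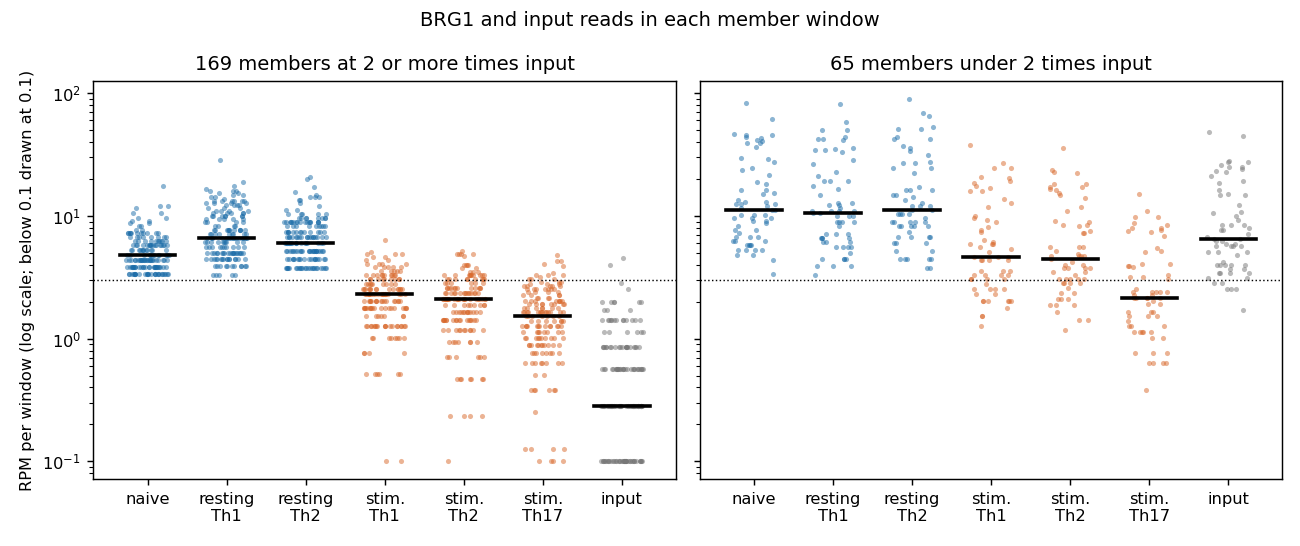
Each point is 1 member window and its level in RPM on a log axis, by library, with 169 enriched members on the left and 65 input-rich members on the right. Black bars are medians and the dotted line is the minimum of 3 RPM in the unstimulated libraries. On the left the input lies far below every BRG1 median. On the right the input median of 6.51 RPM lies above the 3 stimulated medians, an order that the class and the rule nearly fix.

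Most enriched members kept some BRG1 reads after stimulation. In 138 of the 169 stimulated Th1 still had at least 2 times the input level, in 134 stimulated Th2 did, and in 118 stimulated Th17 did. All 3 stimulated libraries did so in 108. The counts per library include the 41 windows without an input read, which pass at any stimulated count. Of the 3228 enriched qualifying windows that were not members, 3021 passed in stimulated Th1, 2951 in Th2 and 1983 in Th17. Among these non-members 193, 5.98%, had no input read, against 24.3% of the 169. The counts of members and non-members are therefore not like for like. A level of 3 RPM, the minimum asked of the unstimulated libraries, was still met in 42 of the 169 by stimulated Th1. Stimulated Th2 met it in 34 and stimulated Th17 in 13. In 115 windows all 3 stimulated libraries lay below it. Only 6 enriched members had no read in 1 or more of the stimulated libraries.

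The 10 members with the strongest loss, by the upper end of the interval of the pooled ratio, were all enriched. The first was chr6:71870801-71871000, the member with the fewest stimulated reads. Naive held 3.86 RPM there, resting Th1 7.19 and resting Th2 7.46, from 8, 13 and 10 reads. Stimulated Th1 and Th2 both had 0 reads, and stimulated Th17 and input had 1 read each. With 3 counts put in place of 0, stimulated Th1 was 9.39-fold lower than resting Th1. The exact interval from the counts themselves starts at 6.60-fold. Stimulated Th2, treated in the same way, was 10.6-fold lower than resting Th2, and its exact interval starts at 7.13-fold. All 3 unstimulated libraries were above all 3 stimulated ones, an order that the rule and the ranking nearly fix.

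At chr4:10697201-10697400 the resting subsets stood above naive. Naive held 6.27 RPM, resting Th1 13.3 and resting Th2 20.1. After stimulation Th1 held 1.79, Th2 1.41 and Th17 0.380 RPM, and input held 0.849. Stimulated Th17 and input had 3 reads each, so their order was not resolved. The ratio of stimulated to resting was 0.135 in Th1 (0.0490 to 0.322) and 0.0699 in Th2 (0.0236 to 0.173).

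The window chr2:9515801-9516000 had nearly the same number of reads in each unstimulated library, 22 from naive, 20 from resting Th1 and 21 from resting Th2. Its levels were 10.6, 11.1 and 15.7 RPM in that order. Stimulated Th1 held 2.04 RPM, stimulated Th2 2.58, stimulated Th17 0.760 and input 0.566. No unstimulated level overlapped a stimulated one, which the rule and the ranking nearly fix. The ratio of stimulated to resting was 0.185 in Th1 (0.0703 to 0.438) and 0.165 in Th2 (0.0717 to 0.357).

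At chr12:108972801-108973000 resting Th1 was the highest library, and input had no read. Naive held 7.24 RPM, resting Th1 14.4 and resting Th2 8.21. Stimulated Th1 held 2.04, stimulated Th2 0.469 and stimulated Th17 1.65. An input count of 0 allows up to 0.849 RPM. The ratio was 0.142 in Th1 (0.0556 to 0.323) and 0.0572 in Th2 (0.00616 to 0.262), the latter from 2 stimulated reads.

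The most strongly bound of the 10 was chr9:96790201-96790400, where the unstimulated reads numbered 36, 52 and 28. These are 17.4 RPM for naive, 28.8 for resting Th1 and 20.9 for resting Th2. Stimulated Th1 held 6.38 RPM, stimulated Th2 3.75 and stimulated Th17 3.04, and input held 0.566. Loss was therefore partial, and every stimulated library stayed above 3 RPM. The ratio was 0.222 in Th1 (0.132 to 0.364) and 0.180 in Th2 (0.0908 to 0.344).

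In another 2 of the 10, the remaining reads differed between stimulated Th1 and Th2. At chr13:97978201-97978400 naive held 4.34 RPM, resting Th1 12.2 and resting Th2 6.72, and stimulated Th1, Th2 and Th17 held 0.766, 2.11 and 0.633. At chr10:19041601-19041800 they were 6.27, 10.5 and 3.73 RPM before stimulation, and 2.55, 0.469 and 0.760 after it, in the same order. The higher stimulated library was thus Th2 in the former and Th1 in the latter, on 10 reads or fewer each. Input was 0.283 RPM, 1 read, in both.

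The remaining 3 of the 10 had 1 well covered window and 2 sparse ones. At chr1:58360601-58360800 levels were 12.1, 17.7 and 8.21 RPM in naive, resting Th1 and resting Th2, and 3.32, 2.58 and 1.77 in stimulated Th1, Th2 and Th17. The windows chr13:44906401-44906600 and chr15:80928201-80928400 both had 7, 9 and 7 reads in naive, resting Th1 and resting Th2. After stimulation the former had 4, 1 and 3 reads and the latter 3, 1 and 4, in Th1, Th2 and Th17. Over these 10 windows together, input never passed 3 reads.

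The 65 input-rich members behaved differently: they held many reads in every library, input included. Naive had a median of 11.1 RPM, resting Th1 one of 10.5 and resting Th2 one of 11.2. Stimulated Th1 had 4.59, stimulated Th2 4.46 and stimulated Th17 2.15, against 6.51 for input. Stimulated Th1 lay at or below the input in 60 of the 65, stimulated Th2 in 62 and stimulated Th17 in 64. They were also concentrated, with 36 on chromosome 9 and 16 on chromosome 2. Of these, 31 lay below 3.1 Mb on chromosome 9, 14 within chr2:98502601-98507600 and 3 within chr9:35112601-35113200.

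The 6 members with the highest unstimulated level were all input-rich, and their numbers of distinct reads differed far less between libraries than library size did. At chr9:35112801-35113000 naive held 171 reads, resting Th1 147, resting Th2 120, stimulated Th1 149, stimulated Th2 152, stimulated Th17 119 and input 172. In RPM, in the same order, these are 82.5, 81.3, 89.5, 38.0, 35.7, 15.1 and 48.7. The highest of the 6 BRG1 read numbers was naive, and stimulated Th1 and Th2 held as many reads as resting Th1 or more. With all reads kept, the levels were 629, 349 and 256 RPM before stimulation, 198, 183 and 110 after it and 821 for input, again in that order.

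The next window, chr2:98502801-98503000, had 128, 106 and 93 reads in naive, resting Th1 and resting Th2, and 105, 101 and 86 in stimulated Th1, Th2 and Th17. The input had 158. The other 4 were chr2:98507201-98507400, chr2:98506801-98507000, chr2:98502601-98502800 and chr9:35113001-35113200. At chr2:98507201-98507400 every library held 78 to 97 distinct reads, while all reads numbered 1797 to 8802. A window has 400 start sites, 200 on each strand, and in the fullest member 42.8% of them were occupied in 1 BRG1 library. In enriched members the occupied share reached 13% at most, and in enriched qualifying windows that were not members 59.5%.

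The ratios over the input-rich members changed under 2 other ways of counting reads. Why they changed was not tested. With all reads kept, the stimulated level summed over the 65 was 0.545 times (0.534 to 0.557) the resting one for Th1 and 0.675 times (0.660 to 0.692) for Th2. With 1 read per site it was 0.456 and 0.391 times. With each BRG1 library first thinned to 2114866 reads and then reduced to 1 per site, it was 0.627 in Th1 (0.586 to 0.672) and 0.616 in Th2 (0.574 to 0.662). The enriched members moved less: 0.290 in Th1 and 0.298 in Th2 as counted here, 0.250 and 0.301 with all reads kept, and 0.294 and 0.328 after thinning. Only 11 of the 65 met the rule after this thinning, against 89 of the 169.

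**Figure D2:**
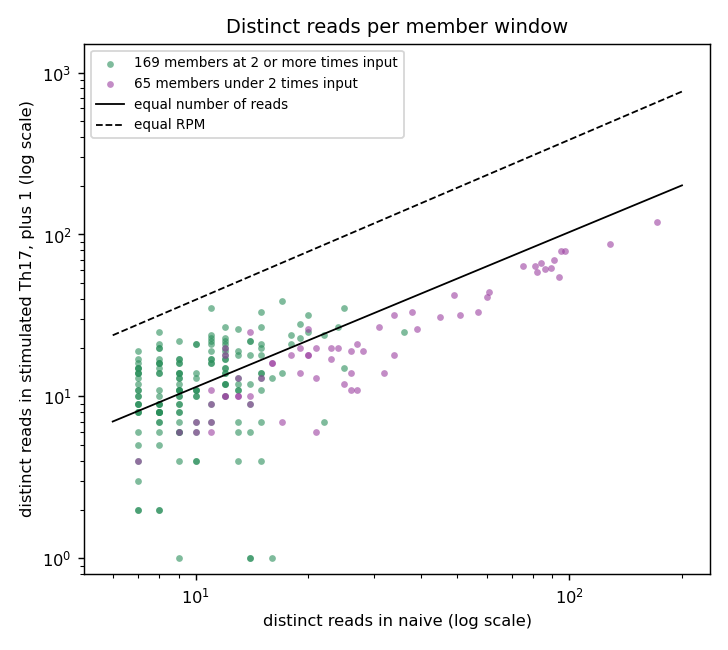
Distinct reads of each member in naive (x axis) and in stimulated Th17 plus 1 (y axis), both on log axes; green points are the 169 enriched and purple points the 65 input-rich members. The solid line marks equal numbers of reads and the dashed line equal RPM; the input-rich members lie along or just below the solid line up to 171 naive reads, and the enriched ones scatter around it.

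Most input-rich members came in runs, 54 of 65, and of the enriched ones 2 of 169 did. Joining members across gaps of up to 1 kb gave 193 runs, of which 178 were a single window. The largest, chr2:98502601-98507600, held 14 members with 1008 reads from naive, 876 from resting Th1 and 737 from resting Th2. Stimulated Th1 gave 880, stimulated Th2 879, stimulated Th17 746 and input 1090. The next 5 were all on chromosome 9: chr9:3035001-3036800 with 7 members, chr9:3025401-3027800 and chr9:3003001-3006000 with 5 each, and chr9:35112601-35113200 and chr9:3022001-3023600 with 3 each, as many as chr9:3018201-3019400, which ranks after them on equal numbers. All members of these 6 runs were input-rich.

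Among enriched members, 167 of 169 were single windows, and the only run was the pair at chr4:62254801-62255200. That pair had 27 reads from naive, 35 from resting Th1 and 18 from resting Th2, and 21, 19 and 31 from stimulated Th1, Th2 and Th17, with 4 from input. A qualifying window lay directly beside 21 of the 169 enriched members, 12.4% (7.86 to 18.4). The same was so for 1036 of the 3228 enriched qualifying windows that were not members, 32.1% (30.5 to 33.7). A qualifying non-member that was enriched lay within 5 kb of 33 members, 19.5% (13.8 to 26.3), and of 33.2% (31.6 to 34.9) of the non-members. Enriched members were spread over all 19 autosomes, from 3 on chromosome 16 to 20 on chromosome 11. These were 3.37% and 5.24% of the enriched qualifying windows there, against 4.97% over all autosomes. By share the range was 2.89% on chromosome 5 to 8.25% on chromosome 13, from 5 and 8 members.

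Around enriched members the difference between states was smaller than in the window itself. The window was chosen for this ratio and its flanks were not, so part of the contrast follows from the choice; on reads of the unused strand, given further on, the ratio in windows chosen in the same way was 0.412 to 0.450. In the member window itself resting Th1 had a mean of 7.92 RPM and stimulated Th1 one of 2.29. In the next window on each side resting Th1 had 2.05 and stimulated Th1 1.50, a ratio of 0.735 (0.684 to 0.789). From 400 to 1000 bp away it was 0.791 and 0.859, a ratio of 1.09 (1.03 to 1.15). In Th2 the ratio was 0.654 (0.603 to 0.709) in the next window and 0.976 (0.918 to 1.04) from 400 to 1000 bp away. Between 400 and 1000 bp, then, pooled over both sides, stimulated Th1 was not lower than resting Th1, and for Th2 the interval held 1. Farther out single positions varied, and at 1600 bp to the right the Th2 ratio was 0.734 (0.603 to 0.898). Around enriched non-members the ratios at 400 to 1000 bp were 1.45 in Th1 and 1.16 in Th2. Around input-rich members the ratios at 400 to 1000 bp were 0.485 in Th1 and 0.420 in Th2. Of these 65 members 54 lay in runs, so their flanks could hold other members chosen by the same rule.

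**Figure D3:**
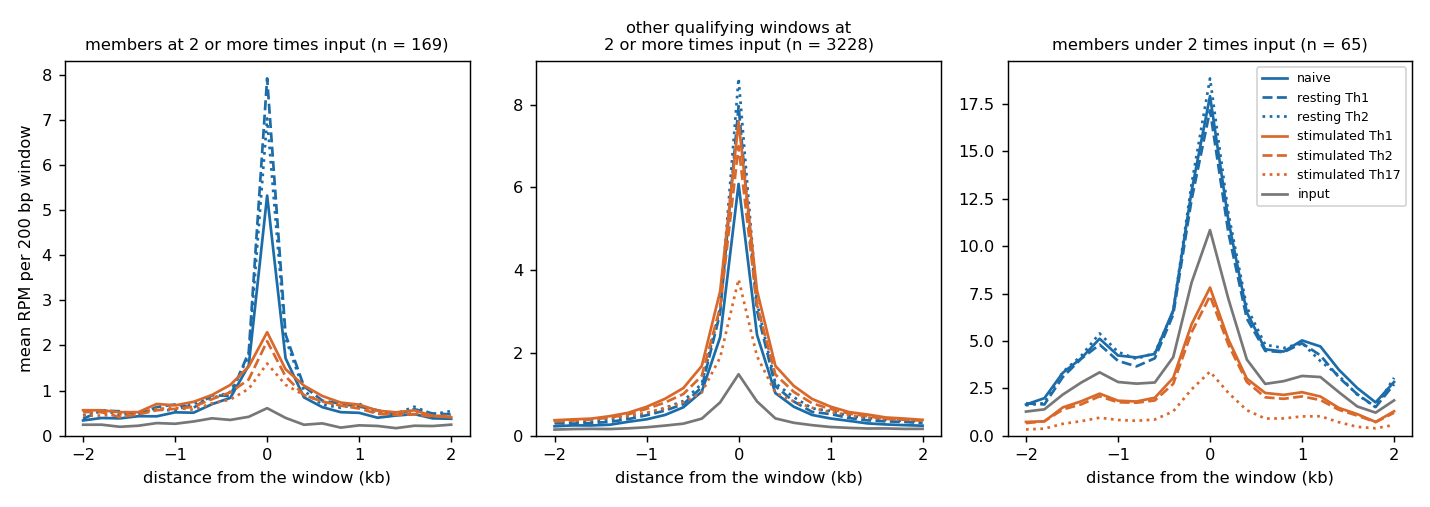
Mean RPM per 200 bp window against distance from the window in kb, for the 169 enriched members, the 3228 enriched qualifying windows that were not members, and the 65 input-rich members; blue lines are unstimulated, orange stimulated and grey input libraries. At the centre of the left panel the blue lines stand at 5.32 to 7.92 RPM and the orange ones at 1.60 to 2.29, and at 0.4 kb to the right the 6 BRG1 lines overlap between 0.851 and 1.11.

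The typical member held fewer input reads than the typical other qualifying window, a measure that the choice did not use, while the mean went the other way. Over all 234 members the median input level was 0.849 RPM, against 1.98 in the 4830 non-members. The mean was 3.45 RPM in members and 2.35 in non-members, with 10.8 in the 65 input-rich members and 0.612 in the 169 enriched ones. Over all autosomal windows with a read it was 0.127. No input read fell in 41 of the 234, 17.5% (12.9 to 23.0), and in 193 of the 4830, 4.00% (3.46 to 4.59). All 41 were enriched members, where the median input level was 0.283 RPM against 1.42 in enriched non-members, though the input also defined these classes. The unstimulated medians of enriched members and non-members were closer, 4.83 and 5.31 RPM for naive, 6.64 in both for resting Th1, and 5.97 and 6.72 for resting Th2. A window with 0 input reads may still have up to 0.849 RPM.

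The order of libraries within a state depended on the scale. Per distinct reads, naive was the lowest unstimulated library in 116 of the 169 enriched members, 68.6%, and in 60.1% of the enriched non-members. Scaled to the median of the 2654 windows with at least 3 RPM in all 6 libraries, it was the lowest in 48, 28.4%, and in 28.2% of non-members. Resting Th1 was the highest in 90 of the 169, 53.3%, and in 36.9% of non-members. On the median scale these shares were 45.6% and 27.8%. Over enriched members the summed level of resting Th1 was 1.13 times (1.06 to 1.20) that of resting Th2, and 1.19 times (1.12 to 1.27) on the median scale. Over non-members these ratios were 0.923 and 0.978. Against naive, resting Th1 was 1.49 times (1.40 to 1.58) and resting Th2 1.32 times (1.23 to 1.41) as high over enriched members. On the median scale these were 1.11 and 0.932 times, where the second ratio changed direction. The rule used the unstimulated levels, so nothing is read from how these shares and ratios differ between members and non-members.

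Few single members differed by 3-fold between unstimulated libraries with an interval that left out 1. Resting Th1 was higher than naive by that measure in 3 of the 169, against 9.95% of all windows with at least 10 reads in the pair, and lower in 0, against 0.957%. Resting Th2 was higher than naive in 2, against 12.1%, and lower in 0, against 1.15%. Resting Th1 was higher than resting Th2 in 2, against 1.65%, and lower in 0, against 3.05%. The minimum of 3 RPM that every member met in these 3 libraries limits such counts.

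Stimulated Th17 was most often the lowest stimulated library per distinct reads, and on the median scale this no longer held in enriched members. Per distinct reads it was the lowest of the 3 in 98 of the 169 enriched members, 58.0%, and in 92.0% of the enriched non-members. On the median scale it was so in 21.9% of enriched members, 44.6% of enriched non-members and 73.8% of input-rich members. Its summed level was 0.698 times (0.653 to 0.746) that of stimulated Th1 over enriched members and 0.498 times (0.494 to 0.503) over non-members. On the median scale these ratios were 1.32 (1.24 to 1.41) and 0.945 (0.936 to 0.953), which reversed the direction in members. Against stimulated Th2 the ratios were 0.764 and 0.540 per distinct reads, and 1.33 and 0.941 on the median scale. The rule capped all 3 stimulated libraries in members, so nothing is read from how these ratios differ between members and non-members. Stimulated Th1 was 1.10 times (1.02 to 1.18) stimulated Th2 over enriched members, and 1.01 times (0.937 to 1.08) on the median scale.

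Single members seldom differed by 3-fold among the stimulated libraries. Of 153 enriched members with at least 10 reads in the pair, stimulated Th17 was lower than stimulated Th1 with an interval without 1 in 16, against 8.61% of all windows, and higher in 1, against 5.03%. It was lower than stimulated Th2 in 11 of 153, against 9.15%, and higher in 0, against 5.25%. Stimulated Th1 was higher than stimulated Th2 in 4 of 153, against 2.47%, and lower in 0, against 2.56%. As shares of the 153, the counts for Th17 lower, 10.5% and 7.19%, were near those over all windows.

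Window by window, the loss was resolved in some members and not in others. Among enriched members with at least 10 reads in the pair, stimulated Th1 was at least 3-fold lower than resting Th1 with an interval below 1 in 95 of 167. Stimulated Th2 was so in 71 of 153, and 43 of the 169 passed in both subsets. Of all windows with at least 10 reads, 2.13% passed for Th1 and 2.19% for Th2, while 19.3% and 7.9% were higher by the same measure after stimulation, as 0 members were. The same libraries chose the members, so nothing is read from the contrast. Among the 65 input-rich members 6 passed for Th1 and 11 for Th2.

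Because few reads chose the members, the loss was measured again on reads that had no part in the choice. When windows were chosen on forward reads alone, 230 enriched windows met the rule. On these forward reads the stimulated level was 0.288 times the resting one in Th1, and on the unused reverse reads it was 0.450 times (0.413 to 0.490). In Th2 the ratio was 0.279 on the choosing and 0.425 (0.387 to 0.468) on the unused reads. Choosing on reverse reads gave 209 enriched windows and, on the unused forward reads, ratios of 0.412 (0.378 to 0.450) in Th1 and 0.443 (0.401 to 0.491) in Th2. Enriched windows that qualified on 1 strand without meeting the rule had ratios of 0.995 and 0.996 in Th1 and 0.853 and 0.848 in Th2 on the other strand. The loss was therefore 2.22 to 2.43-fold on unused reads, against 3.45 to 3.68-fold on the choosing reads.

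Leaving both libraries of a subset out of the choice gave a comparison between libraries that had not been used. With resting and stimulated Th1 left out, naive, resting Th2, stimulated Th2 and stimulated Th17 chose 431 enriched windows. In these resting Th1 had a mean of 5.58 RPM and stimulated Th1 one of 3.08, which gives 0.551 (0.529 to 0.574). In 3412 enriched windows that were not chosen the means were 7.27 and 7.33, which gives 1.01 (0.996 to 1.02). With all reads kept, the values were 0.493 for the chosen and 1.18 for the other windows. Stimulated Th1 lay below 0.5 times resting Th1 in 178 of the 431, 41.3% (36.6 to 46.1), against 9.78% of all 3843 windows examined in this way. Windows chosen for a loss in the other libraries thus had a lower level in stimulated than in resting Th1, though by less than the members. The deeper stimulated library held more reads there, 5196 against 4350, so the difference is one of RPM.

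With resting and stimulated Th2 left out, 384 enriched windows were chosen. Resting Th2 had a mean of 4.66 RPM and stimulated Th2 one of 2.34, which gives 0.502 (0.476 to 0.528). The 4014 windows not chosen gave 0.883 (0.873 to 0.894). With all reads kept, these became 0.513 and 1.18, so that only the windows not chosen changed direction. Stimulated Th2 was below 0.5 times resting Th2 in 198 of the 384, 51.6% (46.4 to 56.7), against 14% of 4398. With Th17 left out, 169 of 189 chosen enriched windows had a stimulated Th17 level below 0.5 times the unstimulated mean, 89.4%, against 55.3% of 3397. That mean also served to choose the 189, so only the numerator was left out and the shares are a description. The second share shows that stimulated Th17 was low per distinct reads in most enriched windows.

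Per distinct reads, naive was the library that limited membership most. Without it, 1265 of 9786 qualifying windows met the rule in place of 234 of 5064. Among the 1187 of these that were enriched, the naive level had a mean of 1.97 RPM and reached 3 RPM in 233. In the 6320 enriched windows that met the minimum in both resting libraries and were not chosen, the naive mean was 3.88 RPM. The mean stimulated level was below 0.5 times naive in 257 of the 1187, 21.7% (19.3 to 24.1), against 5.59% of 7507. The stimulated libraries of this measure also chose the 1187, so nothing is read from the contrast. Most of the 1187 thus had less than 3 RPM in naive. The rank of naive depended on the scale. It was the lowest unstimulated library in 68.6% of enriched members per distinct reads and in 28.4% on the median scale. Leaving out stimulated Th1 raised the number of members to 442 of 5064. Leaving out 1 of the other 4 libraries gave from 254 of 5064 (stimulated Th17) to 351 of 5064 (stimulated Th2).

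**Figure D4:**
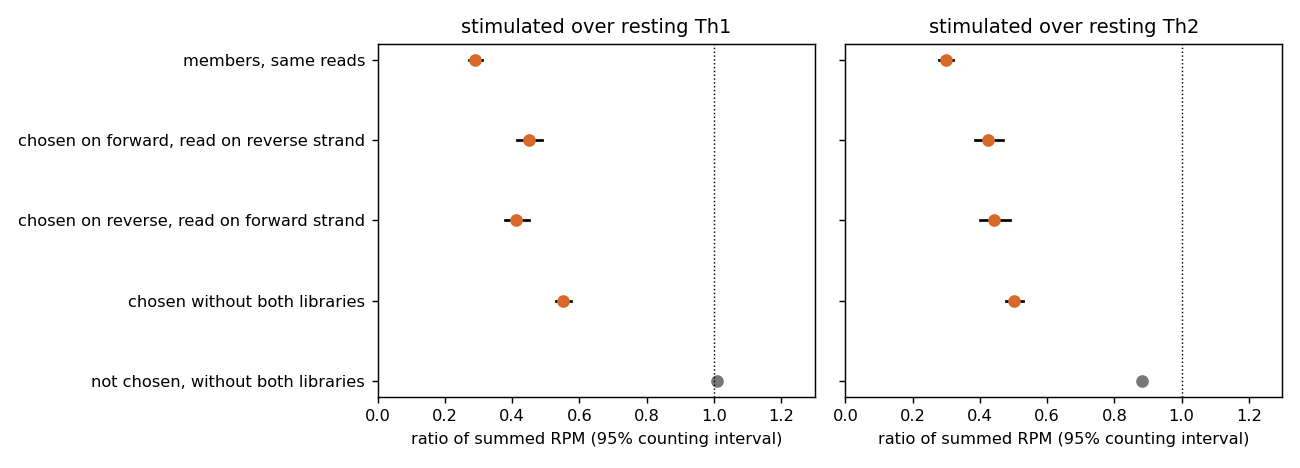
Ratio of summed RPM, stimulated over resting, in Th1 (left) and Th2 (right), with 95% counting intervals, for enriched windows: the 169 members on the reads that chose them, windows chosen on 1 strand and measured on the other, windows chosen without both libraries of the subset, and windows not chosen in that way (grey). Ratios are 0.290 in Th1 and 0.298 in Th2 on the choosing reads, and 0.412 to 0.450 on the unused strand. In windows chosen without both libraries they are 0.551 and 0.502. The sets of windows differ between these rows, and why the ratios differ was not tested. All lie below the ratios of windows not chosen, 1.01 and 0.883.

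At the threshold of 0.5, members and non-members differed by a fraction of a read. The 3 members nearest to it had a highest stimulated level of 0.499, 0.498 and 0.498 times the unstimulated mean, at chr2:98506801-98507000, chr9:3035601-3035800 and chr6:117866801-117867000. The 3 nearest windows outside lay just above 0.5, at chr2:166731401-166731600, chr3:21834801-21835000 and chr9:121619201-121619400. The enriched member of these, chr6:117866801-117867000, had 11, 9 and 13 unstimulated reads and 13, 13 and 23 stimulated ones. The window outside at chr9:121619201-121619400 had 10, 11 and 8 unstimulated and 10, 12 and 16 stimulated reads, with 0 in input.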

How the data were processed

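BRG1 ChIP-seq and input reads of 7 libraries were analysed. For each library the authors deposited the positions of its aligned reads, with strand, and no other value. Each read spans 34 bases. The submitters' processing notes name mm9 as the build. An aligner is not named in the sources used here. Libraries were amplified over 18 PCR cycles and size-selected at 250 to 300 bases, per the labels' protocols.

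Chromosome Y was left out, 1 read was kept per chromosome, 5′ end and strand, each 5′ end was moved 75 bp inward, and reads were counted in 200 bp windows from base 0. RPM is per 1000000 distinct reads. Ratios of RPM carry conditional exact intervals and shares Clopper-Pearson intervals, both at 95%. Tools were Python 3.11.15, numpy 2.4.6, pandas 2.3.3, scipy 1.17.1 and matplotlib 3.10.9. Counting, rule and interval were tested on simulated data. Windows named were the 10 members with the lowest upper bound, the 6 with the highest unstimulated level, the 6 largest runs and 3 windows on each side of the threshold; further windows were chosen after their values were seen. With 1 library per group no test across samples was made. Alternatives were other minimums and ratios, scalings, read shifts and tilings, all reads kept, thinned reads, 1 strand, and each library left out. The gene lists and motifs planned were not applied, because no mm9 annotation or sequence was used. Members and lists were chosen with earlier results of these data known.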

Additional observations from a re-analysis of the deposited data

How the results depend on the processing

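No paired analysis was possible because each group has 1 library. The enriched class, the thinning of all reads and the choice without both libraries of a subset were added after seeing the data. Every alternative run kept the ratio of stimulated to resting RPM below 1. Most alternatives chose and measured windows on the same libraries, so nothing is read from this. The causes of the shifts were not tested except where the construction shows them. The member count, 234 of 5064 qualifying windows, was 475 of 9967 with a minimum of 2 RPM and 111 of 1866 with 5 RPM. With a ratio of at most 0.33 it was 40 of 5064. Leaving 1 library out of the rule gave from 254 of 5064 (stimulated Th17) to 1265 of 9786 (naive). The other settings gave 169 of 3397 (the enriched members) to 321 of 6515 (per autosomal reads). Of the 301 members with all reads kept 158 were among the 234, of the 251 at equal distinct reads 122, of the 204 with 5′ ends not moved 127, of the 224 after scaling by the median of windows bound in all 6 libraries 171, and of the 179 after thinning all reads 100.

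The pooled Th1 ratio of 0.365 and the pooled Th2 ratio of 0.345 became, in this order, 0.412 and 0.491 with all reads kept, 0.324 and 0.298 at equal distinct reads, 0.338 and 0.327 with 2 RPM, 0.393 and 0.365 with 5 RPM, and 0.180 and 0.202 with a ratio of 0.33. They were 0.314 and 0.309 where the unstimulated mean was at least 2 times input, 0.468 and 0.417 on unused reverse reads, and 0.442 and 0.437 on unused forward reads. In enriched members they were 0.290 and 0.298, and after thinning all reads 0.291 and 0.309. Median scaling, which moved levels by -0.24 (resting Th2) to 0.69 (stimulated Th17) on the log2 scale, gave 0.383 in Th2, and in enriched members 0.275 in Th1 and 0.326 in Th2. Without 1 library they ranged from 0.319 to 0.466 in Th1 and from 0.302 to 0.399 in Th2.

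The median input level, 0.849 RPM over members, was 0.525 with all reads kept, 0.591 per autosomal reads, 2.83 with 5 RPM, and 0.283 with 2 RPM, with a ratio of 0.33 and in enriched members. It was 0.566 with 5′ ends not moved, with windows from base 100, with at least 2 times input, on either unused strand and after thinning all reads, and 0.283 to 0.849 without 1 library.

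For the subset left out of the choice, the Th1 ratio of 0.551 and the Th2 ratio of 0.502 became 0.490 and 0.457 with all reads kept, 0.512 and 0.466 with 5 RPM, 0.383 and 0.336 with a ratio of 0.33, and 0.649 and 0.595 after thinning all reads. The Th1 ratio was also 0.577 without moving 5′ ends, 0.584 when moved 100 bp and 0.578 with 2 RPM, and the Th2 ratio 0.544 after median scaling. Depth limits single windows, since 1 read is worth 0.483 to 0.746 RPM in the unstimulated libraries.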

Other observations

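Chromosome X was left out of the choice of members. There, 53 windows held at least 3 RPM in each unstimulated library and 1 met the rule, 1.89% (0.0478 to 10.1). It was chrX:34015001-34015200, where naive and resting Th1 had 7 reads each, resting Th2 had 5, stimulated Th1 and Th2 had 2 each, stimulated Th17 had 4 and input had 0.

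With all reads kept, the level summed over the input-rich members was highest in the input. The median level was higher in naive, 48.7 RPM, than in input, 43.1 RPM. Naive summed to 10728 RPM, resting Th1 to 6560 and resting Th2 to 5350. Stimulated Th1 summed to 3578, stimulated Th2 to 3613 and stimulated Th17 to 1759, and input to 11992, the highest of the 7. A distinct read stood for 15.7 reads of naive, 8.23 of resting Th1 and 6.89 of resting Th2. After stimulation it stood for 7.95 reads of Th1, 8.54 of Th2 and 8.91 of Th17, and for 18.3 of input. In enriched members it stood for 1.77 to 2.02 reads in the unstimulated and 1.26 to 1.29 in the stimulated libraries.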
